A study of Mus musculus with 2 samples.

Results

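Mir877, Mir1224 and Mir702 are known as mirtrons, microRNA genes whose hairpin comes from a short intron by splicing. They were chosen by name from the microRNA genes of the mouse annotation GENCODE M21 and make up 3 of the 2202 genes in the deposited count tables. The data are microRNA-seq libraries, made from RNA in the size range below 30 nucleotides, of the left cerebral cortex of 2 female mice aged 36 days. Both mice were of the hybrid strain B6CASTF1/J, from The Jackson Laboratory. They are numbered as biological replicates 1 and 2 of a single group and carry a single donor code. They are called mouse 1 and mouse 2 here. No treatment, genotype contrast or other tissue was labelled, so the design sets no condition against another. Each mouse has 1 library, and a difference between mice cannot be told apart from a difference between library preparations. Levels are in CPM, a gene's sense-strand counts per 1000000 sense-strand counts over all microRNA genes, of which there were 1930234 for mouse 1 and 1863876 for mouse 2. Each mean ± SD is over n = 2 mice. For the labelled tissue, Mir128-1, which is enriched in neurons, stood at 16282 and 17178 CPM in the mice, and the liver microRNA gene Mir122 at 45.6 and 40.2 CPM.

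Most microRNA hairpins are cut out of a long transcript in the nucleus by the enzyme Drosha with its partner Dgcr8, and their loop is then removed in the cytoplasm by Dicer. A mirtron skips the first cut. The spliceosome releases the intron as a lariat, the lariat is opened by the debranching enzyme, and the linear intron folds into a hairpin that goes on to Dicer. The ends of such a hairpin are therefore set by the splice sites of the host gene, a GU at the start and an AG at the end of the intron. Mirtrons have been studied in brain because neurons that lack Dgcr8 keep them while neurons that lack Dicer lose them.

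The 3 hairpins are shown first because their letters carry the splice sites. All sequences are from RefSeq on the GRCm38.p6 build, are written 5′ to 3′ on the strand of the gene, and are identical to the M21 transcripts of these genes. Capitals mark the annotated mature arms, the 5p arm before the loop and the 3p arm after it.
Mir877, chr17:35960730-35960814, minus strand: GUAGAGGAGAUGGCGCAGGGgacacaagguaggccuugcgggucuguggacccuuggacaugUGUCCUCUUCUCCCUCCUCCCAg
Mir1224, chr16:20604452-20604536, plus strand: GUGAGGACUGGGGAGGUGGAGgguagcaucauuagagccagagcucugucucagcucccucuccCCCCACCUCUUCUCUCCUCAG
Mir702, chr5:136991433-136991541, plus strand: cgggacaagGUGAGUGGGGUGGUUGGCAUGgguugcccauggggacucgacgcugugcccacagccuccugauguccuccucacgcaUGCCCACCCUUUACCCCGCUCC

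In M21, the hairpins of Mir877 and Mir1224 each filled an intron exactly, while that of Mir702 did not. Mir877 (ENSMUSG00000077931.1) was identical in start and end to intron 12 of the 22 introns of Abcf1, which encodes an ATP-binding cassette protein involved in translation initiation. Mir1224 (ENSMUSG00000080669.1) was identical to intron 22, the last of the 22 introns, of Vwa5b2, a gene for a protein with a von Willebrand factor A domain. Both of these introns were 85 bases long. Mir702 (ENSMUSG00000076240.1) lay in intron 13 of the 18 introns of Plod3, which encodes a lysyl hydroxylase that modifies collagen. That intron was 102 bases long, and the annotated hairpin of 109 bases began 9 bases upstream of it, inside the Plod3 exon, and ended 2 bases before its end. The extra 9 bases are in lower case at the start of the sequence above. Whether fragments of Plod3 RNA over these bases entered the count of Mir702 cannot be read from the tables.

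All 3 of these introns were short, but none was the shortest of its host transcript. The Mir877 intron ranked as number 4 from the shortest in the Abcf1 transcript, whose introns ranged from 78 to 4522 bases with a median of 139.5. The Mir1224 intron ranked as number 5 in Vwa5b2, against a shortest intron of 75 bases and a median of 216 bases. The Mir702 intron ranked as number 2 in Plod3, against a shortest of 100 bases and a median of 176.5 bases. Over all introns of protein-coding transcripts in M21, 2.46% were no longer than 85 bases and 5.43% were no longer than 102 bases.

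**Figure D1:**
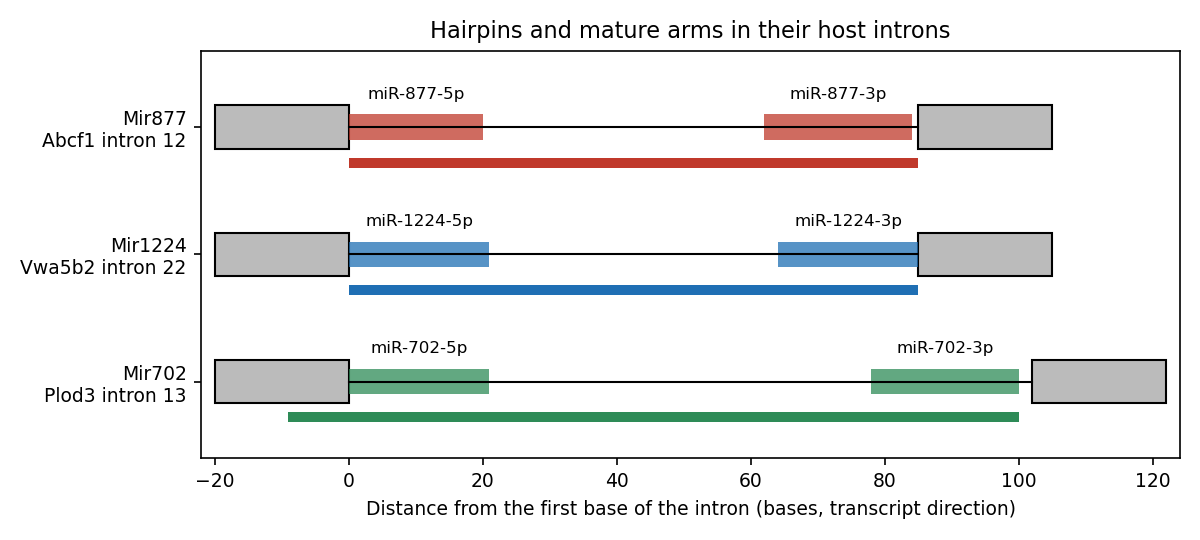
The hairpins (thin bars under each line) and mature arms (coloured boxes) drawn against their host introns, with the x axis in bases from the first base of the intron in the direction of transcription and grey boxes for the ends of the flanking exons, of which 20 bases are drawn. All 3 of the 5p arms start at position 0, and the Mir702 hairpin reaches 9 bases into the upstream exon.

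The mature arms kept close to the splice sites in all 3 genes, Mir702 included. In the next lines the seed, bases 2 to 8, which pairs with target messenger RNAs, is in capitals.
miR-877-5p: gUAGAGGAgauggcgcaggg
miR-1224-5p: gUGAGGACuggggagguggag
miR-702-5p: gUGAGUGGggugguuggcaug
miR-877-3p: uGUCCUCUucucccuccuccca
miR-1224-3p: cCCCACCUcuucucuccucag
miR-702-3p: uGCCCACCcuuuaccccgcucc

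Each 5p arm began at the first base of its intron, so the GU of the 5′ splice site was the first pair of bases of the microRNA and its second letter was the first base of the seed. At the other end, miR-1224-3p ended on the last base of its intron, miR-877-3p ended 1 base before it and miR-702-3p 2 bases before it. Among 485 annotated 5p arms of other Mir genes, outside the predicted mirtrons and the hairpins that match an intron, 3.30% began with GU. The longer run GUGAG opened 2 of the 3 member arms, miR-1224-5p and miR-702-5p, and 0.206% of those 485 arms. In the 177 arms of the predicted mirtrons, the genes from Mir6896 to Mir7094, GU opened 8.47% and GUGAG 5.65%. Of 5 arms from other hairpins that match an intron, in 4 genes outside the predicted mirtrons, GU opened 3 and GUGAG 1. Mir3102 entered with miR-3102-5p and also with miR-3102-5p.2-5p, which starts 22 bases into the intron. All these counts are matches of letters at the start of the arm, on the strand of the gene only.

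No seed was shared among the 6 arms, and 5 of the 6 seeds belonged to no other mouse microRNA in the RefSeq table. The exception was miR-702-5p, whose seed UGAGUGG was also that of miR-3102-5p. Mir3102 is itself a hairpin that matches an intron exactly, in the gene Arhgef17, and its 5p arm too began at the first base of the intron. It is shown for that shared seed, again in capitals.
miR-3102-5p: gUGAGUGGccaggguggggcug

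Between the 3p arms the longest shared run was the 9 bases CCUCUUCUC, from base 4 of miR-877-3p and base 6 of miR-1224-3p. The 6 bases CCCACC were shared by miR-1224-3p and miR-702-3p, at bases 2 and 3. No mature arm was found whole in an M21 transcript of another gene, and no hairpin had a run of 20 bases in common with another annotated hairpin. Reads at several genomic places were 50.9% of mapped reads in mouse 1 and 51.2% in mouse 2 and entered no gene count.

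The arms had an unusual base composition, but the genes were chosen as known mirtrons, so the contrast with other arms is not independent of that choice. The 3p arm of a mirtron covers the pyrimidine tract that precedes the 3′ splice site. C and U made up 90.9% of miR-877-3p, 85.7% of miR-1224-3p and 81.8% of miR-702-3p. The median of 525 other 3p arms, again outside the predicted mirtrons and the hairpins that match an intron, was 54.5%. Of those arms, 100% lay below miR-877-3p, 99.05% below miR-1224-3p and 98.5% below miR-702-3p. On the opposite side, G made up 55% of miR-877-5p, 61.9% of miR-1224-5p and 57.1% of miR-702-5p, against a median of 27.3% over 512 other 5p arms. The 201 predicted mirtrons had medians of 72.1% C and U in 176 3p arms and 43.5% G in 177 5p arms. In the other hairpins that match an intron, 4 genes outside the predicted mirtrons, the medians were 66.7% C and U over 5 3p arms and 59.1% G over 5 5p arms. A 5p arm as rich in G as those of the members was thus also found there. These values describe annotated sequences, with no test.

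**Figure D2:**
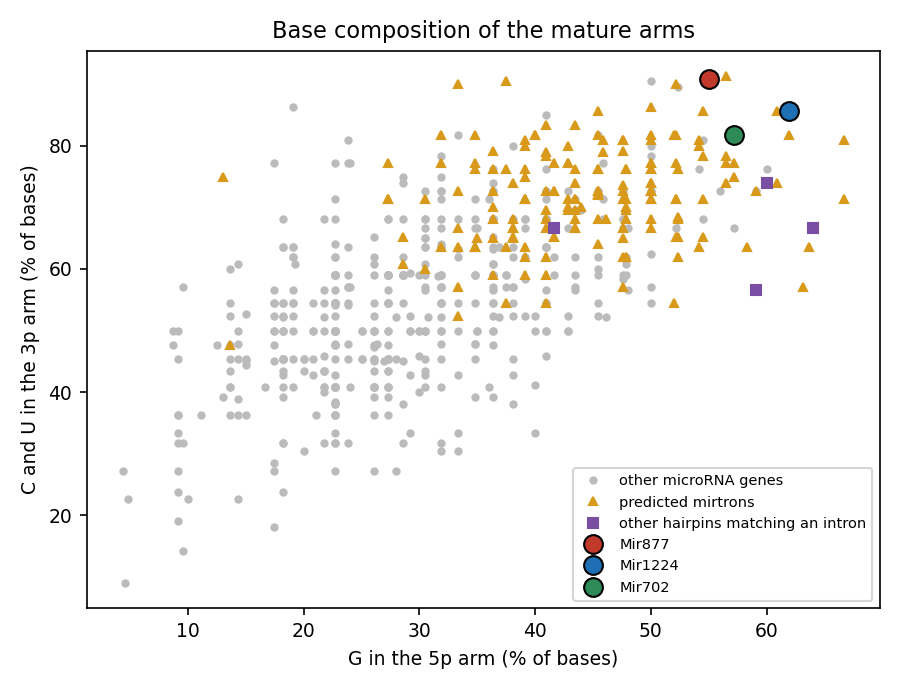
Base composition of the mature arms of each microRNA gene with both arms annotated, with G in the 5p arm (% of bases) on the x axis and C and U in the 3p arm (% of bases) on the y axis. Grey points are 463 other microRNA genes, triangles 168 predicted mirtrons and squares 4 other hairpins that match an intron; the 3 members lie in the upper right, at 55% to 61.9% G and 81.8% to 90.9% C and U.

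Folded in silico as annotated, the hairpins of Mir877 and Mir702 lay near the median stability of Mir hairpins and that of Mir1224 was more stable. The minimum free energy was −36.5 kcal/mol for Mir877, −42.8 kcal/mol for Mir1224 and −47.4 kcal/mol for Mir702, with 28, 29 and 36 base pairs. Per base this was −0.43 for Mir877, −0.50 for Mir1224 and −0.43 for Mir702, against a median of −0.41 over 1174 Mir hairpins. Of those hairpins 38.4% were more stable per base than Mir877, 14.6% more than Mir1224 and 35.5% more than Mir702.

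All 3 mirtrons were read in both cortices at moderate levels, with Mir1224 the highest. Mir1224 had 1203 sense counts in mouse 1 (623 CPM) and 515 in mouse 2 (276 CPM), a mean of 450 ± 245 CPM. Mir877 had 842 counts in mouse 1 (436 CPM) and 466 in mouse 2 (250.0 CPM), a mean of 343 ± 132 CPM. Mir702 had 755 counts in mouse 1 (391 CPM) and 407 in mouse 2 (218 CPM), a mean of 305 ± 122 CPM. The values of mouse 1 lay above those of mouse 2 in each gene, and the highest value of mouse 2 lay below the lowest of mouse 1. The 95% Clopper-Pearson interval of the smallest of these values, Mir702 in mouse 2, ran from 198 to 241 CPM. Such intervals come from 1 library each and cover counting error only. They make no allowance for PCR copies, which are counted as reads.

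The order Mir1224, Mir877, Mir702 was the same in both mice, but neighbouring means in this order differed by less than the SD between mice of either gene. Within mouse 1, Mir1224 had 1.43 times the counts of Mir877 (95% counting interval 1.31 to 1.56), and within mouse 2 it had 1.11 times (0.973 to 1.26). Mir877 had 1.12 times the counts of Mir702 in mouse 1 (1.01 to 1.23) and 1.14 times in mouse 2 (1.00 to 1.31). Mir877 and Mir702 therefore stood in nearly the same ratio in both mice, and Mir1224 stood further above them in mouse 1. A read is about as long as a mature arm, so counts between these genes are not set by hairpin length. Scaled to 100 bases of hairpin, the levels were 529 CPM for Mir1224, 404 CPM for Mir877 and 279.6 CPM for Mir702. Counts are per gene, so the tables do not tell whether the 5p or the 3p arm was read.

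Among the 304 genes at 10 CPM or more in both mice, the mirtrons lay near the middle. Ranks and shares here cover only reads mapped to 1 place, as reads at several places entered no gene count. Mir1224 ranked as number 139 of all 2202 genes by mean level, above 54.3% of those 304. Mir877 ranked as number 150, above 50.7% of them, and Mir702 as number 156, above 48.7%. Together the 3 genes held 0.145% of sense counts in mouse 1 (95% Clopper-Pearson interval 0.140% to 0.151%) and 0.0745% in mouse 2 (0.0706% to 0.0785%), a mean of 0.110% ± 0.0499. The opposite strand of Mir877 and Mir1224 had 0 counts in both mice and that of Mir702 had 1 count in mouse 1 and 0 in mouse 2. Unstranded totals were smaller, 1795648 for mouse 1 and 1716054 for mouse 2. With unstranded counts the mean share was 0.118%, and the mean levels were 485 CPM for Mir1224, 370 CPM for Mir877 and 329 CPM for Mir702.

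**Figure D3:**
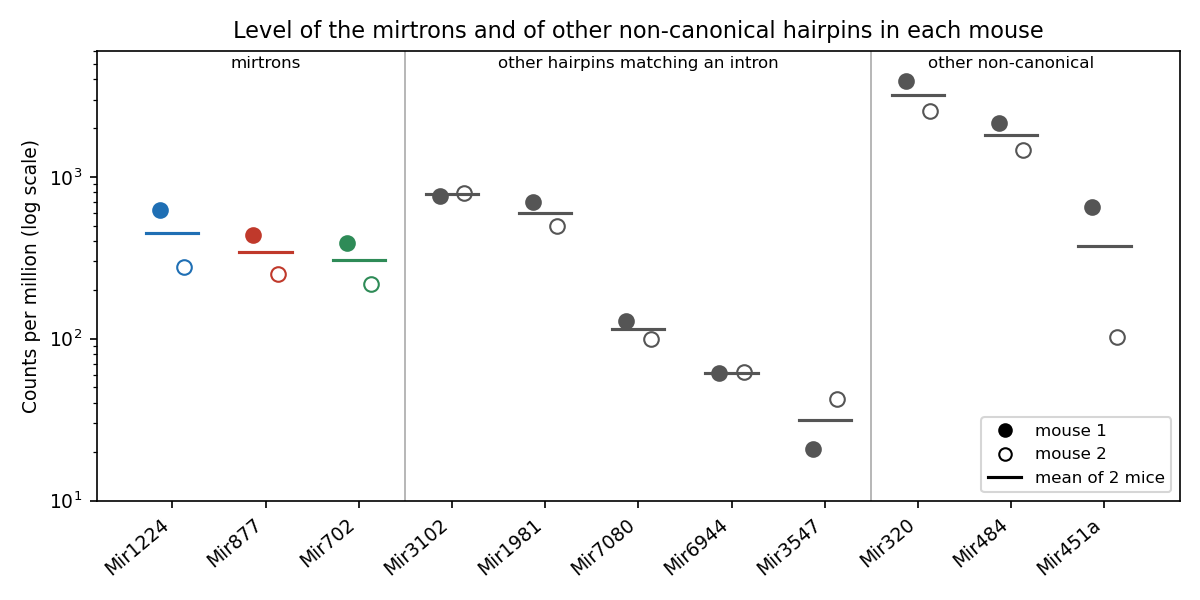
Level of each gene in CPM on a log scale, with filled points for mouse 1, open points for mouse 2 and lines for their mean. The 3 mirtrons lie between 218 and 623 CPM, below Mir320 and Mir484 in both mice and above Mir7080, Mir6944 and Mir3547.

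Gene by gene, each of the 3 mirtrons was far more abundant than the median predicted mirtron, while the summed levels of the lists lay closer. Of the 201 predicted mirtron genes 9 (4.48%) reached 10 CPM in both mice, against 25.6% of the 1174 genes with a Mir symbol and 3 of the 3 members. The predicted genes had a median of 0.786 CPM and a summed level of 830 CPM in mouse 1 and 609 CPM in mouse 2. The 3 members alone summed to 1451 CPM (mouse 1) and 745 CPM (mouse 2). The members were chosen as known mirtrons, with earlier results of these data known, so this contrast is not independent of that choice. By the position of hairpin ends alone, most predicted mirtrons fell into the classes of the members. Of the predicted hairpins 15 had both ends within 5 bases of the ends of an annotated intron, as Mir877 and Mir1224 did, and 171 had their 3′ end there but not their 5′ end, as Mir702 did. The last class does not tell a 5′ end in the exon, as in Mir702, from one inside the intron. Nor does it place the 5p arm, which opened with GU in all 3 members but in only 8.47% of 177 predicted arms.

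Other hairpins that match an intron reached levels like those of the members in 2 cases. By position alone, 21 genes beside the members, here with predicted mirtrons included, had both hairpin ends within 5 bases of an intron's ends, and 5 of them reached 10 CPM in both mice. Mir3102, which shares the seed of miR-702-5p, had 759 CPM in mouse 1 and 799 CPM in mouse 2. Mir1981, in an intron of the reductase gene Marc2, had 704 CPM in mouse 1 and 494 CPM in mouse 2. Mir7080 in the copine gene Cpne7 (129 and 99.3 CPM), Mir6944 in the drebrin gene Dbn1 (61.1 and 62.2 CPM) and Mir3547 in Baiap3 (20.7 and 42.4 CPM) were lower in mouse 1 and mouse 2 than each of the members.

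MicroRNAs that skip a processing step in another way were also read. Mir320 and Mir484 have hairpins whose 5′ end is the start of transcription, so that no Drosha cut is needed. Mir320 had 3907 CPM in mouse 1 and 2535 CPM in mouse 2, which was 6.27 and 9.17 times the counts of Mir1224. Mir484 had 2160 CPM in mouse 1 and 1471 CPM in mouse 2, or 3.47 and 5.32 times the counts of Mir1224. Mir451a, which is cut by Drosha but matured by Ago2 in place of Dicer and is abundant in red blood cells, had 649 CPM in mouse 1 and 103 CPM in mouse 2.

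By the distance between log2(CPM + 1) values over both mice, the gene nearest to Mir877 was Mir702, and the reverse also held, at a distance of 0.25. Next to Mir877 came Mir700 (0.46) and Mir467d (0.49). Nearest to Mir1224 were Mir1843b (0.22), Mir3099 (0.37) and Mir467d (0.39). Next to Mir702 came Mirlet7a-1 and Mir30c-2, both at 0.56. With 2 mice this measure says only that levels were alike in each library.

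Between the mice, all 3 mirtrons were higher in mouse 1, and Mir1224 by more than 2-fold. The ratio was 2.33-fold for Mir1224 (log2 ratio of mouse 1 over mouse 2 of 1.22, 95% counting interval 1.07 to 1.37, adjusted p = 1.47e-62 by the exact binomial test). For Mir702 it was 1.85-fold (0.89, interval 0.71 to 1.07, adjusted p = 3.44e-24, exact test). For Mir877 it was 1.80-fold (0.85, interval 0.69 to 1.02, adjusted p = 6.61e-25, exact test). These p-values compare 2 libraries for counting error only, were adjusted by Benjamini-Hochberg over the 324 genes whose mean level reached 10 CPM, and say nothing of a condition. In pieces of whole tissue, more cells that hold a mirtron and more of it per cell cannot be told apart.

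Such differences were common in these libraries. The exact test alone was passed by 74.7% of the 324 genes, and 36.7% passed it with the higher level in mouse 1, as all 3 mirtrons did. With a minimum of 2-fold added, 19.4% were called, of which those higher in mouse 1 were 5.25% of the tested genes and included Mir1224. Those higher in mouse 2 were 14.2% and included no mirtron of the 3. Mir877 and Mir702 passed the test but not 2-fold. In absolute size, Mir1224 ranked as number 49 of the 324, Mir702 as number 81 and Mir877 as number 88, and the median gene differed 1.44-fold. The median log2 ratio of the 3 members was 0.89, beside 0.00 over all tested genes. The SD between mice was 54.5% of the mean for Mir1224, 40.1% for Mir702 and 38.4% for Mir877. Over the same 324 genes edgeR put the common coefficient of variation between the mice, beyond counting error, at 0.399, so Mir877 and Mir702 varied about as much as the common estimate.

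Hairpins high in GC tended to be higher in mouse 1 and those low in GC in mouse 2, and the mirtrons are rich in GC. Their hairpins held 61.2% GC (Mir877), 60% (Mir1224) and 65.1% (Mir702), against a median of 50.9% over the tested genes. Of the 60 tested genes at 60% GC or more, 44 were higher in mouse 1 and the median log2 ratio was 0.33. Of the 85 genes under 45% GC, 24 were higher in mouse 1 and the median was −0.47. Between these ends the rise was not steady. The median was 0.03 from 45% to 50% GC, −0.11 from 50% to 55% and 0.28 from 55% to 60%. With a linear trend on GC removed, the log2 ratios were 1.12 for Mir1224, 0.72 for Mir877 and 0.67 for Mir702. For Mir1224 the counting interval was 0.97 to 1.27 (adjusted p = 1.92e-52 by the exact test). Each ratio remained positive. The Mir1224 ratio remained over 2-fold, but its interval reached below 2-fold. The linear trend took off 0.10 for Mir1224, 0.13 for Mir877 and 0.22 for Mir702. These values are smaller than the median of 0.33 at 60% GC or more. Whether Mir1224 would stay over 2-fold under a stronger GC correction was not tested. Over all tested genes, 29 calls were higher in mouse 1 and 38 in mouse 2 with the linear trend removed. Without that step, 17 were higher in mouse 1 and 46 in mouse 2.

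**Figure D4:**
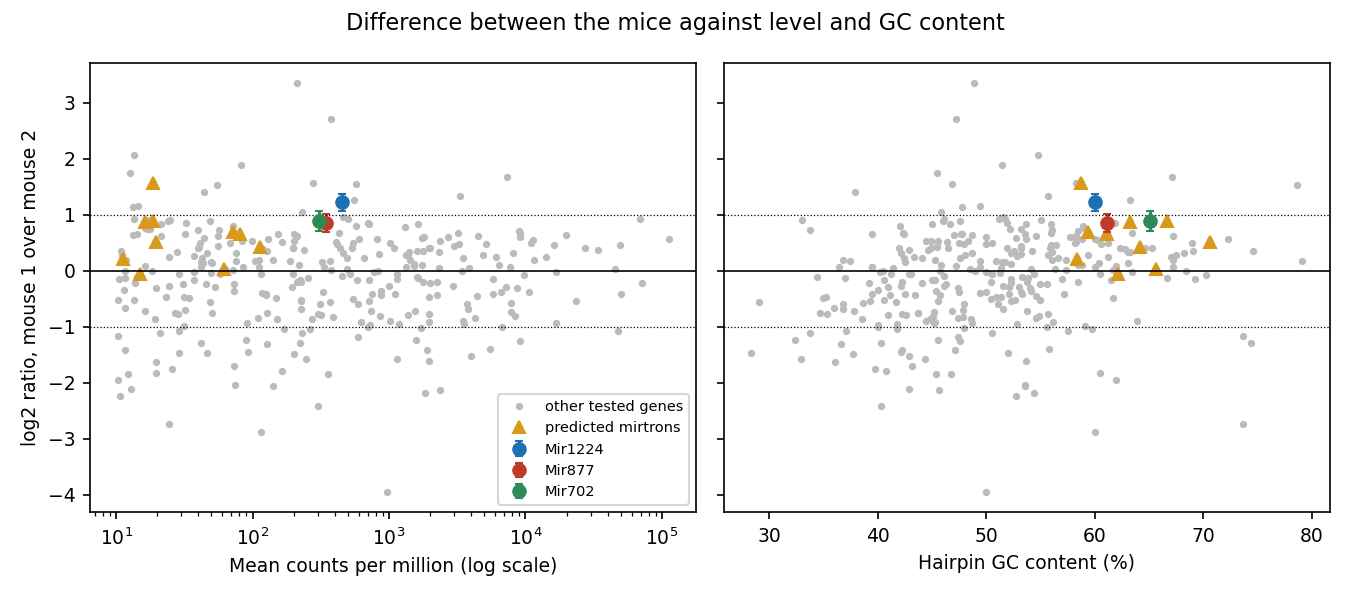
Log2 ratio of mouse 1 over mouse 2 for the 324 tested genes, against mean CPM on a log axis (left) and hairpin GC content in percent (right). Bars on the 3 members are 95% counting intervals, dotted lines mark 2-fold, and triangles are 10 predicted mirtrons; Mir1224 lies above the upper dotted line, and Mir877 and Mir702 just below it.

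Among the other tested hairpins that match an intron and Mir320, Mir484 and Mir451a, Mir3547 alone was clearly lower in mouse 1. Mir1981 was 1.47-fold higher in mouse 1 (log2 ratio 0.56, adjusted p = 1.40e-19 by the exact test), and Mir320 and Mir484 were 1.59-fold and 1.52-fold higher. Mir3102 had a log2 ratio of −0.03 (95% counting interval −0.13 to 0.08, adjusted p = 0.685 by the exact test) at a GC content of 63.5%. Mir7080 had a log2 ratio of 0.43 (interval 0.15 to 0.71) and Mir6944 of 0.02 (interval −0.36 to 0.40). Mir3547, with only 40 counts in mouse 1 and 79 in mouse 2, had a log2 ratio of −0.98 and an interval of −1.57 to −0.42. Mir451a lay further apart than any member, at 6.51-fold higher in mouse 1. Of the 10 predicted mirtrons tested, 9 were higher in mouse 1 and 6 passed the exact test in that direction, with a median log2 ratio of 0.58. Over all tested genes, 50% were higher in mouse 1 and 36.7% passed the exact test in that direction. These 10 predicted genes had a median GC content of 62.7%. Among all tested genes at 60% GC or more, 73.3% were higher in mouse 1.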

How the data were processed

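The deposited values are whole-number read counts per gene for 1 library from each of 2 mice, on the mm10 assembly with GENCODE M21, per the labels' README notes. No source names the count columns. They were read as unstranded, sense and antisense, and the sense column was used. Aligner, counter and trimming: not given in the sources used here. All 4 lines that name no gene (72.7% of reads in mouse 1 and 70.2% in mouse 2) stayed out of library sizes. The floor that a count of 0 allows was set at 3 counts (1.55 CPM for mouse 1, 1.61 CPM for mouse 2). Reads that differ from mm10 on CAST alleles may be missing.

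From these counts CPM, TMM factors over all genes with a count (0.983 and 1.02, edgeR 4.0.16), exact binomial tests with Benjamini-Hochberg adjustment (threshold 0.05 and 2-fold, scipy 1.17.1, tested on simulated data) and folds (ViennaRNA 2.7.2) were computed. Intron ends come from M21. The genes named were set by rule: the members, Mir320, Mir484, Mir451a, up to 10 predicted mirtrons and up to 10 other hairpins with both ends within 5 bases of an intron's ends, each at 10 CPM or more in both mice, the 3 nearest genes to each member, and host genes. Mir128-1 and Mir122, named for the labelled tissue, and Mir7066 fell outside this rule. The members and lists were chosen with earlier results of these data known. Alternatives were DESeq2 1.42.0 size factors, sense totals, unstranded counts, no filter, other denominators, log2(CPM + 1), and each mouse alone. Among the predicted mirtrons, 1 that met the naming rule is not reported here.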

Additional observations from a re-analysis of the deposited data

How the results depend on the processing

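Of the values recomputed under an alternative, 45, for the levels, the share, the order and the log2 ratios of the 3 mirtrons and for the count of genes called, kept their direction and their side of the threshold, moved by less than the SD between mice or, for the count, stayed within 1.5 times. Another 8, the levels and the share with 1 mouse left out, say nothing of stability, since with 2 mice such a value always lies within 1 SD of the mean. Some of the 45 were also weak checks. Without the filter on low counts the log2 ratios stay the same by construction, and the log2(CPM + 1) differences kept the reported adjusted p-values. The levels were judged against a wide SD, 38.4% of the mean for Mir877 and 54.5% for Mir1224. The log2 ratio ranged from 1.12 to 1.28 for Mir1224, from 0.72 to 0.91 for Mir877 and from 0.67 to 0.95 for Mir702. The lowest values came with the GC trend removed and the highest with TMM over genes at 10 CPM or more, both added after the data were seen. Called genes numbered between 59 and 71, against 63. With mouse 1 left out, Mir1224 stood at 276 CPM, and with mouse 2 left out at 623 CPM, against the mean of 450 CPM. No paired analysis was possible because there is a single group. Depth also limits the lists, since 44 of 201 predicted mirtrons and 495 of 1174 Mir genes had no count in either mouse.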

Other observations

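Most of the predicted mirtrons that reached 10 CPM in both mice are named here with the genes whose introns hold them. After Mir7080, the highest was Mir7044 in Rasgef1a, with a level of 97.9 CPM for mouse 1 and 64.4 CPM for mouse 2. Mir6982 in Camk2a, a kinase of excitatory synapses, had 22.8 and 16.6 CPM. Mir7019 in the mitochondrial kinase gene Pink1 had 23.8 and 13.4 CPM. Mir6953 in Grina had 20.7 and 11.8 CPM, Mir7046 in Rabac1 had 14.5 and 15.6 CPM, and Mir6954 in Mroh1 had 11.9 and 10.7 CPM. Mir7066 in the proteoglycan gene Ncan, named after its values were seen, stood at 27.5 CPM (mouse 1) and 9.66 CPM (mouse 2). It fell short of 10 CPM in mouse 2 and was tested only because its mean of 18.6 CPM, raised by mouse 1, passed the filter. It was the 1 predicted mirtron called, at 2.94-fold higher in mouse 1, and for that reason the call supports no difference. Of all tested genes, 5.25% were called in that direction.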
